A study of Drosophila melanogaster with 3 samples.

Results

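The 8 genes described here control programmed cell death in Drosophila melanogaster: rpr, hid, grim, skl, Diap1, Dronc, Dark and Drice. They were taken as a listed set from 13945 protein-coding genes, and the peaks assigned to them are those whose summit lies inside the gene or within 10 kb either side, together with the sequence that separates hid, grim and rpr. This rule gave 34 of the 8667 summits of the reproducible peak set. Binding of the transcription factor Deaf1 was mapped by ChIP-seq in whole embryos of both sexes, aged 0 to 24 hours. There were 3 biological replicates of 1 group and no second condition. The embryos came from a transgenic line that stably expresses Deaf1 tagged with GFP at the C-terminal end, and the tag was the target of the antibody. The peaks therefore mark the tagged protein and not the untagged one. Whole embryos mix many cell types and stages, so strong binding in few cells and weak binding in many cannot be told apart.

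In flies, death by apoptosis is held in check by Diap1, an inhibitor of apoptosis protein that binds and restrains caspases. The proteins Rpr (reaper), Hid (head involution defective), Grim and Skl (sickle) bind Diap1 and release the caspases from it. The initiator caspase Dronc is then assembled with the adaptor Dark, the fly relative of Apaf-1, and activates effector caspases such as Drice. The genes rpr, hid and grim lie near each other on arm 3L and skl lies just beyond them. Their transcription is a main control point of developmental cell death in the embryo. Deaf1 is a SAND-domain protein that recognises DNA containing TTCG.

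Peaks are given on the dm6 build with 1-based positions. The reproducible set was derived by the authors from the replicate and pooled lists with the irreproducible discovery rate (IDR), and its members are called IDR summits below. Each replicate list holds 30000 summits, many of them weak, and the number of reads behind the lists is unknown. The signal of a peak is the authors' own value. It is not scaled between lists, so replicate values are given as multiples of the median signal of the replicate's own list, called the relative signal. The word bound is used for a gene with an IDR summit at most 500 bp from an annotated transcription start site (TSS). The median signal was 54.38, 52.74 and 41.12 in the lists of replicates 1, 2 and 3.

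Deaf1 lay at the promoters of the death-promoting genes rpr, hid, grim and skl and of the inhibitor Diap1, 5 of the 8 genes. It did not at those of the caspase genes Dronc and Drice or the adaptor gene Dark. Across all protein-coding genes 27.8% were bound. Diap1 has 5 annotated TSSs, and 82.6% of genes with 5 or more TSSs were bound, so its call alone is near that background. The other 7 genes have 1 TSS each, and 4 of them were bound, where 19.7% of all genes with 1 TSS were. The relaxed pooled list, with a promoter summit at 39.6% of all genes, added none of the 3 remaining genes. With the 10 kb margins 7 of the 8 genes had an IDR summit, where 71.5% of all genes do. The number of IDR summits per gene window was 8 at Diap1, 6 at hid, 3 at rpr, 2 at Dark, 1 each at grim, skl and Dronc, and 0 at Drice. Their median was 1.5, against a median of 2.00 for all protein-coding genes, so by the median the set did not hold more summits per gene. By length, the windows and the sequence between held 9.05 IDR summits per 100 kb, against 6.47 over the 6 arms.

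**Figure D1:**
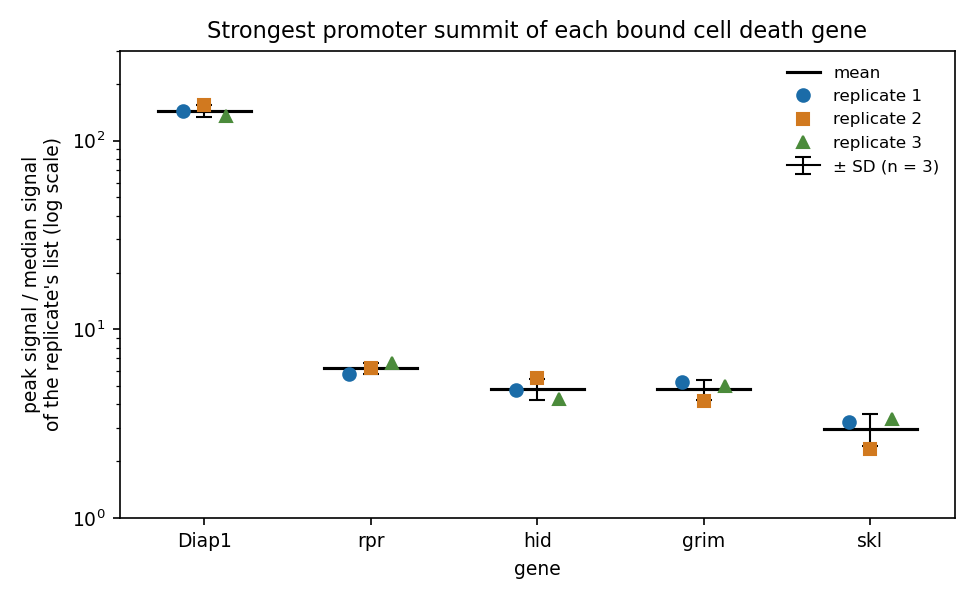
Relative signal (peak signal over the median signal of the replicate's list, log scale) of the strongest promoter summit of each bound cell death gene, by replicate, with mean and SD over 3 replicates. Diap1, at 144 on average, stands above rpr, hid, grim and skl, which lie between 2.32 and 6.61 in every replicate.

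The levels at the bound promoters differed by more than an order of magnitude. The strongest promoter summit of Diap1 had a relative signal of 143, 155 and 135 in replicates 1, 2 and 3 (mean 144 ± 9.91, SD, n = 3). That of rpr had 5.78, 6.26 and 6.61 (6.22 ± 0.415, SD, n = 3). The Diap1 value exceeded the rpr value 24.7, 24.7 and 20.4 times in the 3 replicates. At hid it was 4.78, 5.49 and 4.27 (4.84 ± 0.612, SD, n = 3), and at grim 5.28, 4.17 and 4.98 (4.81 ± 0.572, SD, n = 3). The rpr value was above the hid value in each replicate, whereas hid and grim changed places between replicates and differed by less than their SD. At skl the relative signal was lowest, with 3.22, 2.32 and 3.36 (2.97 ± 0.563, SD, n = 3), below grim in each replicate. Ranked by promoter signal among the 3878 bound genes, Diap1 was at 26, rpr at 1636, hid at 1980, grim at 2029 and skl at 2847. So 1 of the 5 genes stood near the top and the other 4 in the middle and lower ranks of bound promoters.

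The sequences at these sites are shown here because promoters of similar signal differ in whether they hold the Deaf1 core word. Each is 101 bases of dm6, from the RefSeq copy of the genome, on arm 3L unless stated, written 5′ to 3′ on the strand of the gene. Capitals mark TTCG or its reverse complement CGAA. The stretch of Diap1 ends 1 base before the TSS with the strongest peak, and the others are centred on their summit.
Diap1, chr3L:16046847-16046947, minus strand: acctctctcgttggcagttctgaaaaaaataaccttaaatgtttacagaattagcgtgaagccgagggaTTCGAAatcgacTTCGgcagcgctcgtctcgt
Diap1, second promoter, chr3L:16040598-16040698, minus strand: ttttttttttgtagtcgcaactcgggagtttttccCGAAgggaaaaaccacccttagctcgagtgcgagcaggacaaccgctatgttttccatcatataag
rpr, promoter, chr3L:18398447-18398547, minus strand: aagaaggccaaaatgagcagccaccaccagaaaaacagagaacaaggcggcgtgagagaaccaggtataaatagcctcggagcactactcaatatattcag
rpr, upstream summit, chr3L:18400206-18400306, minus strand: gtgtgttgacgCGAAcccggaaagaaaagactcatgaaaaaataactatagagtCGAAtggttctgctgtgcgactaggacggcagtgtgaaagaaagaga
hid, promoter, chr3L:18185940-18186040, minus strand: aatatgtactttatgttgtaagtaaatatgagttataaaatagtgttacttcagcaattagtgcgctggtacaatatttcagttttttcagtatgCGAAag
grim, promoter, chr3L:18304563-18304663, minus strand: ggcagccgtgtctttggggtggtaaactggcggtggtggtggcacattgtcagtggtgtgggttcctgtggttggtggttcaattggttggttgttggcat
skl, promoter, chr3L:18440043-18440143, minus strand: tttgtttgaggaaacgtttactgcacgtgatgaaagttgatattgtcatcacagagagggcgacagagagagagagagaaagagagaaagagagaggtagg

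Of these windows, the stretch upstream of Diap1 held 3 TTCG words, the second Diap1 promoter 1, the upstream rpr summit 2 and the hid promoter 1. The promoter summits of rpr, grim and skl held 0. The skl window held 9 overlapping matches of GAGAG, the word of the GAGA factor Trl, in its run of GA repeats. The word TTCGG, an extended form of the core word that contains it, and CGATA, the word of the insulator protein BEAF-32, were searched as well, and every word was searched on both strands. The grim window, with a G+C content of 55.4%, held 0 of the 4 words.

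Diap1 (FBgn0260635, chr3L:16038410-16051034, minus strand) carried a peak that was among the strongest in the genome. Its summit at position 16046828, in the interval chr3L:16045007-16047640, lay 18 bp downstream of a TSS inside the gene, in a 5′ UTR. With a signal of 21379 it ranked 29 of the 8667 IDR summits, and it ranked 30, 33 and 28 of 30000 in replicates 1, 2 and 3. The interval was 2634 bp wide, against a median of 466 bp over all IDR intervals. The window of 50 bp on each side of this summit held 5 TTCG words and 1 TTCGG.

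Deaf1 was spread over several of the start sites of Diap1, at much lower levels. The second summit, at 16040648 in an intron and 113 bp upstream of the TSS nearest the coding end, had a relative signal of 13.3, 10.8 and 12.1 in replicates 1, 2 and 3 (12.1 ± 1.24, SD, n = 3). The strongest summit exceeded it 10.7, 14.3 and 11.2 times (12.1 ± 1.94, SD, n = 3). Another, at 16050638 and 33 bp downstream of a distal TSS, had 7.97, 6.15 and 9.79 (7.97 ± 1.82, SD, n = 3). Its interval held a further summit, at 16050846, 188 bp downstream of the most distal TSS, with 3.52 ± 1.26 (SD, n = 3). These 4 summits lay within 500 bp of 4 of the 5 TSSs. At the remaining TSS the nearest pooled summit was 216 bp upstream, with a signal of 252.8. That is just below the lowest signal of the IDR set, 256.1, and its relative signal in the replicates was 2.32, 1.01 and 1.85. One further intronic summit, 1501 bp upstream of the strongest TSS, reached only 1.91 ± 0.350 (SD, n = 3).

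The margins of Diap1 held 3 more IDR summits. The summit at 16051993 lay 34 bp downstream of the TSS of the divergent neighbour Mbs (a myosin phosphatase subunit), with a mean relative signal of 4.34 ± 0.578 (SD, n = 3). The other 2 lay in the 3′ UTR of CG5895 and in an intron of Mbs, at 3.05 ± 1.01 and 2.62 ± 0.534 (SD, n = 3 each). In the relaxed lists the window held 23, 23 and 29 summits in replicates 1, 2 and 3, and only the strongest was above 100 times the list median.

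**Figure D2:**
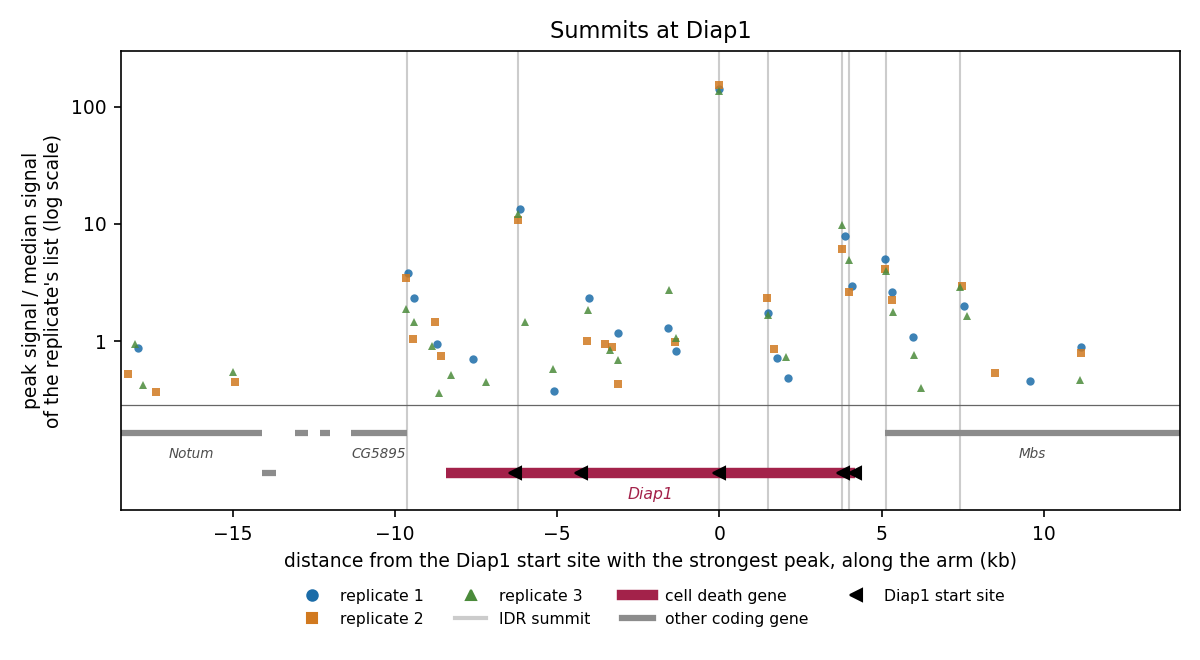
Summits of the 3 replicate lists in the Diap1 window, as relative signal (log scale) against distance along the arm from the TSS with the strongest peak. Grey lines are IDR summits, bars are coding genes with plus-strand genes above minus-strand genes, and black triangles are the 5 Diap1 TSSs. All 3 replicates exceed 100 at that TSS, and the next highest summit is between 10.8 and 13.3.

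The 3 genes whose strongest promoter summit was most like that of Diap1 were lola, LpR2 and ctp. Likeness was the Euclidean distance in log2 relative signal over the 3 replicates. It was 0.130 for lola (a BTB zinc-finger factor), with 151, 146 and 140 in replicates 1, 2 and 3. It was 0.139 for LpR2 (a lipophorin receptor), with 132, 163 and 133, and 0.149 for ctp (a dynein light chain), with 158, 151 and 136.

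At rpr (FBgn0011706, chr3L:18397535-18398435, minus strand) the promoter was not the site of highest signal. The promoter summit lay 62 bp upstream of the TSS, at 18398497 in the interval chr3L:18398269-18398798. A stronger summit stood 1821 bp upstream, at 18400256 in chr3L:18399900-18400604, in intergenic sequence. It had a relative signal of 12.3, 13.2 and 11.6 in replicates 1, 2 and 3 (12.4 ± 0.762, SD, n = 3). It was 2.13, 2.10 and 1.76 times the promoter summit in the same replicates. A weak IDR summit 4441 bp upstream had 1.54 and 3.11 in replicates 1 and 2 and lay in no peak of replicate 3. Replicate 3 had a summit 163 bp away with 2.07, in a peak that did not cover this position, and the summit of replicate 1 was 181 bp away. By this rule of cover it was the only 1 of the 34 summits not found in all 3 replicates.

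The same held for hid (FBgn0003997, chr3L:18167745-18185641, minus strand). Its promoter summit, 349 bp upstream of the TSS at 18185990, was exceeded by a summit 679 bp downstream of the TSS, in coding sequence, at 18184962 in chr3L:18184718-18185265. That summit had a relative signal of 11.1, 10.4 and 8.71 in replicates 1, 2 and 3 (10 ± 1.21, SD, n = 3), which was 2.32, 1.89 and 2.04 times the promoter summit. A weaker summit, at 18173143, also lay in coding sequence of hid, with 3.09, 1.59 and 1.67 (2.12 ± 0.841, SD, n = 3). These were 2 of the 34 summits (5.88%), whereas coding exons away from promoters held 0.796% of all IDR summits. The 101 bp around each of the 2 had a G+C content of 72.3%, the highest of the 34, whose median was 42.1%, against a median of 46.5% over all IDR summits. Upstream of hid, summits 6231 and 7359 bp from the TSS had 3.22 ± 0.275 and 4.15 ± 0.387 (SD, n = 3 each). The last IDR summit of the hid window, with 5.09 ± 0.306 (SD, n = 3), lay 12 bp downstream of the TSS of the neighbour CG13699.

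The other death-promoting genes each had 1 IDR summit, at the promoter. At grim (FBgn0015946, chr3L:18302719-18304417, minus strand) it lay 196 bp upstream of the TSS, at 18304613 in chr3L:18304287-18304832. At skl (FBgn0036786, chr3L:18438561-18439942, minus strand) it lay 151 bp upstream, at 18440093 in chr3L:18439978-18440265. The relaxed lists added little at skl, with 1, 1 and 2 summits in replicates 1, 2 and 3.

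The long stretch between hid and grim, which holds other coding genes such as CG7320 and CheA75a, held most of the summits of the cluster. The region from 10 kb beyond hid to 10 kb beyond rpr spans 251 kb and held 22 IDR summits. Cut into 530 consecutive tiles of this length, the genome gave a median of 16.0 IDR summits per tile, with quartiles of 9 and 24, so the region was within the middle range. Of the 22, 16 lay over 2000 bp from any coding TSS. Over all 34 summits this was 17, where 31.0% of all IDR summits lie so far, and 13 (38.2%) lay within 500 bp of a coding TSS, against 50.9%. These shares depend on the rule that added the sequence between the genes. It brought in 12 of the 34 summits from outside the gene windows, and each of them lay over 2000 bp from any coding TSS. The differences from the whole set are therefore not a trait of the gene windows. The 117 kb between hid and grim held 14 IDR summits, 3 of them upstream of hid within its window. The 93.1 kb between grim and rpr held 2, the grim promoter summit and a summit at 18348786 with 3.12 ± 0.824 (SD, n = 3).

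The gap before rpr recurred in each list. The widest stretch with no summit between grim and rpr measured 49.7 kb in the IDR set and the pooled list, 49.0 kb in replicates 1 and 2, and 33.4 kb in replicate 3. It runs up to the rpr promoter, except in replicate 3, which alone held 2 weak summits inside it, at 0.87 and 0.43 times the list median. Between hid and grim the replicate lists held 45, 43 and 55 summits, and between grim and rpr 7, 11 and 13.

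Some of the sites between hid and grim were stronger than the promoters on either side. The strongest, at 18243968 in chr3L:18243587-18244293, lay in an exon of the non-coding gene lncRNA:CR45936. It had 14.4, 14.6 and 14.9 times the list median in replicates 1, 2 and 3 (14.6 ± 0.229, SD, n = 3), which was 2.73, 3.51 and 2.99 times the grim promoter. Next came a summit at 18234640 in an exon of lncRNA:CR45937, with 10.1, 8.92 and 10.1 (9.72 ± 0.689, SD, n = 3). A summit at 18272831, in sequence with no annotated gene, had 9.53, 8.17 and 9.19 (8.96 ± 0.705, SD, n = 3). The remaining summits between hid and grim, outside the hid window, had means of 2.18 to 4.50. The highest of these shares its replicate 2 value, 8.92, with the summit at 18234640, being in the same replicate peak. These 3 sites are shown because they pair high signal away from coding genes with repeated core words. They are printed on the plus strand, centred on the summit, with TTCG and CGAA in capitals.
Exon of lncRNA:CR45936, chr3L:18243918-18244018: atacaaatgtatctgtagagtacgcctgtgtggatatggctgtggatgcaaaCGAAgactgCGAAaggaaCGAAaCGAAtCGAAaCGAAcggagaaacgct
Exon of lncRNA:CR45937, chr3L:18234590-18234690: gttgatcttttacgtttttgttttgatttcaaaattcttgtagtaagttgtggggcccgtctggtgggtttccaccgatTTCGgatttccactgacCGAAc
Intergenic, chr3L:18272781-18272881: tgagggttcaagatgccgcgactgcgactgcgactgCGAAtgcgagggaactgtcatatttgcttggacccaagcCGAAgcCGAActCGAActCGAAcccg

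The first of these windows held 6 TTCG words, the most among the 34 summits, all on the minus strand and 0 of them extended to TTCGG. The second held 2 and the third 5, and in both 2 words were TTCGG.

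**Figure D3:**
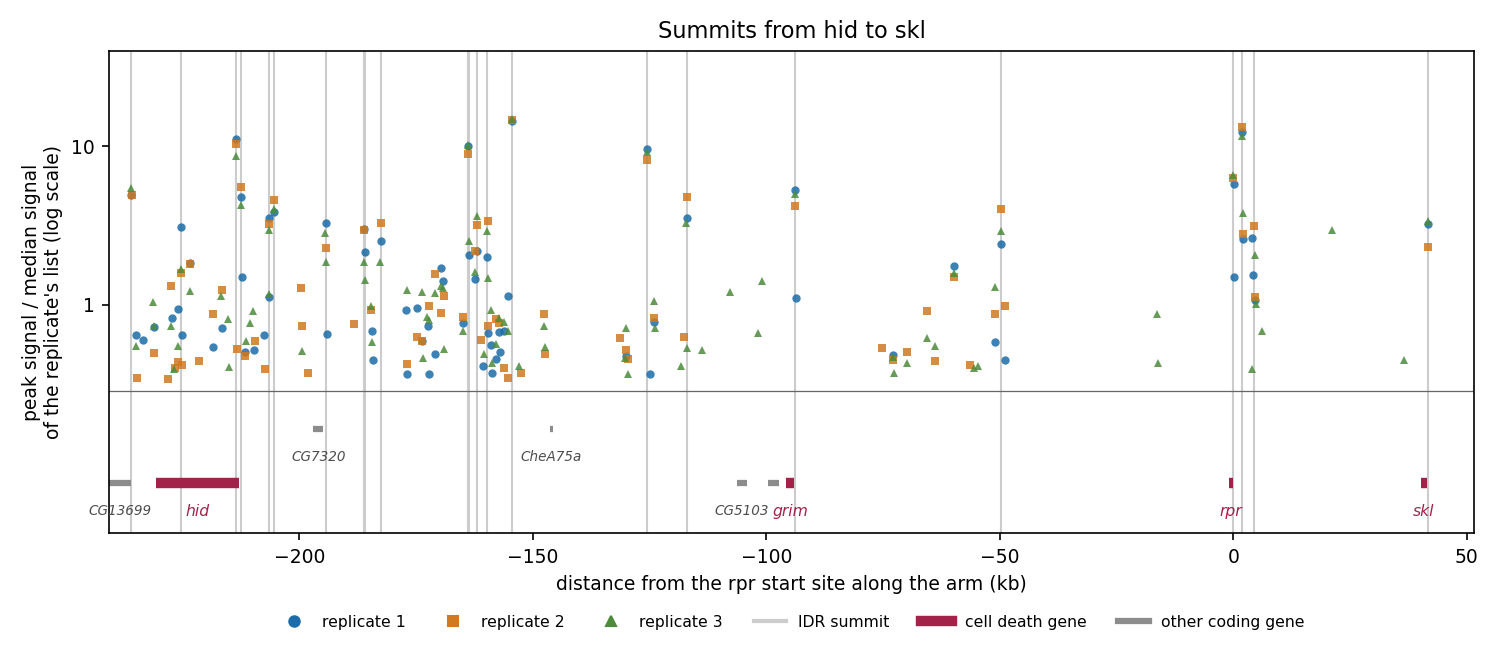
Summits of the 3 replicate lists from hid to skl, as relative signal (log scale) against distance along the arm from the rpr TSS. Grey lines are IDR summits and bars are coding genes, with plus-strand genes above minus-strand genes. The 117 kb between hid and grim hold 14 IDR summits, and the 49.0 kb before rpr are empty in replicates 1 and 2.

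The listed apoptosome and caspase genes Dronc, Dark and Drice had no Deaf1 summit at their own promoters in any list. Dronc (FBgn0026404, chr3L:9968479-9971002, plus strand), the initiator caspase, had its nearest IDR summit 6149 bp downstream of its TSS and 3626 bp past the end of the gene. That summit, at 9974628, lay 23 bp upstream of the TSS of dpr6, a neuronal immunoglobulin receptor gene. It had a relative signal of 3.92, 3.14 and 2.94 in replicates 1, 2 and 3 (3.33 ± 0.518, SD, n = 3). Inside Dronc only replicate 2 had a summit, 785 bp from the start of transcription, with a relative signal of 0.408.

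At Dark (FBgn0263864, chr2R:17020027-17026703, plus strand), the Apaf-1 relative, the picture was similar. Its 2 IDR summits lay outside the gene, in intervals that overlap each other, and both were promoter summits of another gene, as the Dronc summit was. The stronger had 2.55, 3.62 and 2.90 in replicates 1, 2 and 3 (3.02 ± 0.544, SD, n = 3), and the nearest summit to the Dark TSS was 6874 bp downstream.

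Drice (FBgn0019972, chr3R:29799658-29801584, plus strand), the effector caspase, lay in a window of 21.9 kb with 0 summits in each of the 5 lists. Of all protein-coding genes 13.2% have no summit of any list in such a window, so an empty window is not rare. The nearest IDR summit was 16.8 kb from the Drice TSS, and the nearest pooled summit 13.1 kb.

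Its promoter, which was not bound, is shown as the 101 bases upstream of the TSS, with TTCG and CGAA in capitals where present.
Drice, chr3R:29799557-29799657, plus strand: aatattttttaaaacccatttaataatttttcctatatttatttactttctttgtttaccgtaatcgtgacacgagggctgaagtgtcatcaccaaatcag

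This stretch held 0 TTCG words, as did the summit-centred windows of the bound promoters of rpr, grim and skl. In the 250 bp upstream of the TSS the number of TTCG words was 2 at Drice, 1 at Dronc and 2 at Dark, and 3 at rpr, 0 at hid, 0 at grim and 0 at skl. At the 5 TSSs of Diap1 it was between 2 and 4, with 4 at the TSS of the strongest peak. So the unbound genes Drice, Dronc and Dark all held the word. Of the bound genes rpr and Diap1 held it in this stretch, and hid, grim and skl did not. The promoter summit of hid lies 349 bp upstream, beyond this stretch, and the 101 bases around it held 1 TTCG word. The 250 bp upstream of 84.7% of all coding TSSs hold TTCG and 33.6% hold TTCGG.

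**Figure D4:**
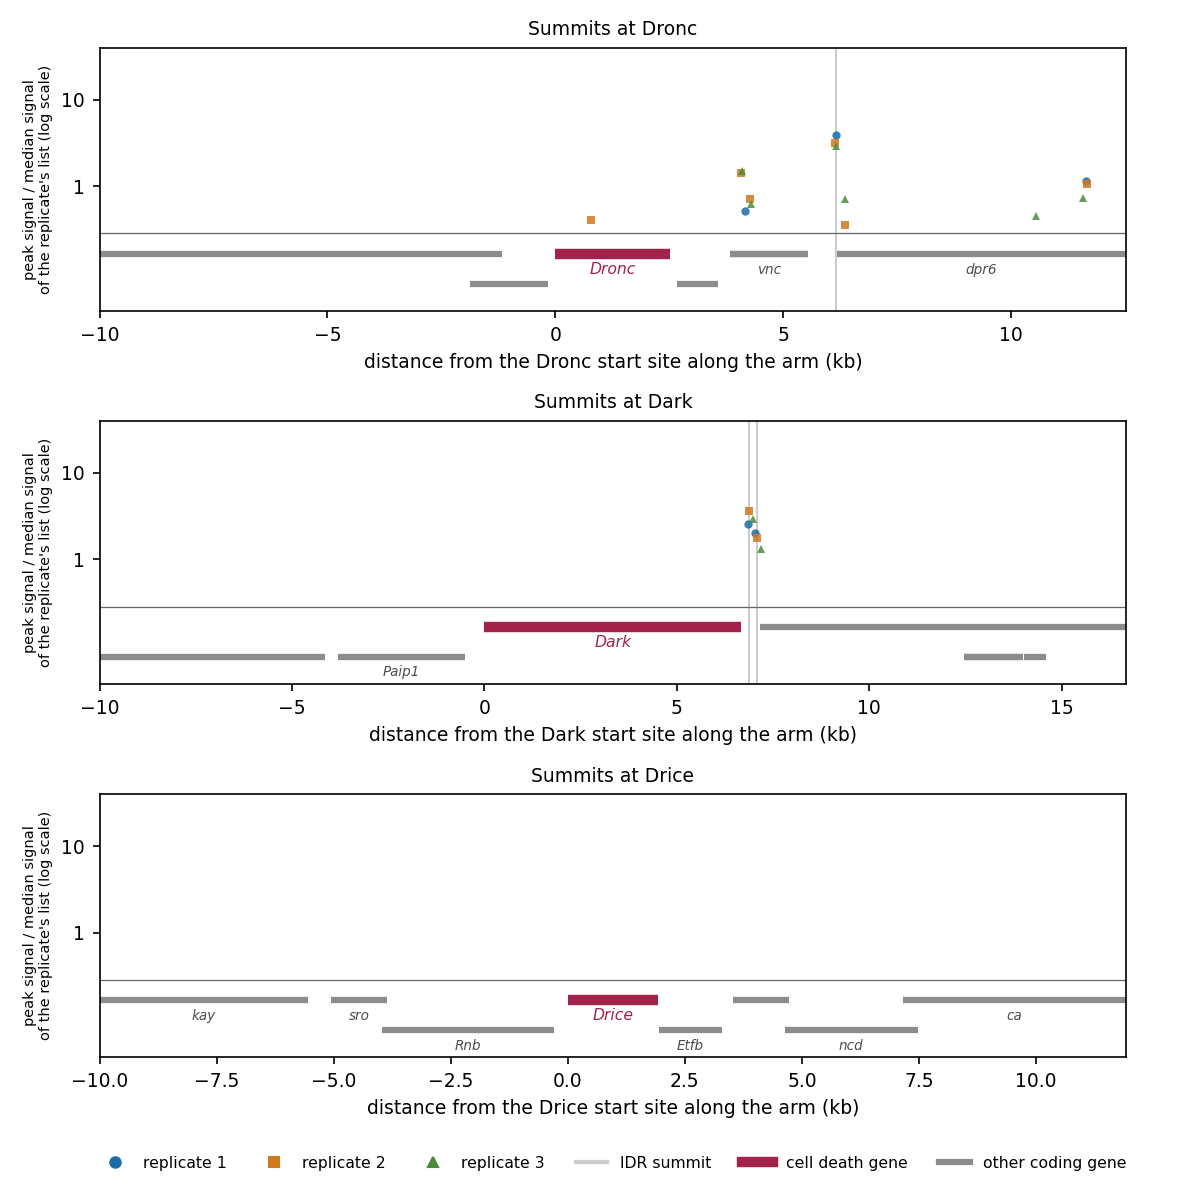
Summits of the 3 replicate lists around Dronc, Dark and Drice, as relative signal (log scale) against distance along the arm from the gene's TSS. Grey lines are IDR summits and bars are coding genes, with plus-strand genes above minus-strand genes. The IDR summits of the Dronc and Dark panels stand outside both genes, at promoters of other genes, and the Drice panel holds 0 summits.

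Over all 34 summits, 8 lay at a promoter of a listed gene and 5 at the promoter of another gene only. The word TTCG was found at 20 of the 34 summits (58.8%) in the 101 bases centred on them, against 66.3% of the whole IDR set. TTCGG, which contains it, was found at 7 (20.6%), against 28.9%. Among the 4333 strongest IDR summits the TTCGG shares were close, at 6 of 16 (37.5%), against 35.3%. GAGAG was at 5 (14.7%, against 22.1%) and CGATA at 1 (2.94%, against 14.3%). The 95% exact Clopper-Pearson interval of the TTCGG share, 8.70% to 37.9%, includes the share of all summits, and covers counting error only. The median signal of the 34 was 483, against 534 over the IDR set, and 16 of them were above the median of the set. All of the 34 were found inside a peak of at least 2 replicates and 33 of them in all 3, although the set was itself derived from agreement between replicates. The share of all IDR summits for which the same holds is not given here, so these counts do not set the 34 apart.

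Of 39 listed names of other death pathway genes 38 matched a gene, and 14 of these were bound (36.8%, against 27.8% of all genes). The genes with 1 TSS had 6 of 24 bound, against 19.7% of all such genes. The adaptor and JNK arm had the most, with 5 of 7: Traf4, Traf6, Tak1, bsk (the JNK) and puc (its phosphatase), and not hep or Fadd. Of these, Traf4, Tak1 and puc have 2 annotated TSSs and bsk has 3, and genes with more TSSs are bound more often. The share of all genes with 2 or 3 TSSs that are bound is not given here. Traf6, hep and Fadd have 1 TSS each, and only Traf6 of them was bound. Among the caspases only Dcp-1 was bound, of 5, at 2.29 ± 0.0312 times the list median (SD, n = 3). Dredd, Strica, Damm and Decay were not. The remaining IAP genes Diap2, Bruce and Det (0 of 3) and the Bcl-2 family genes Debcl and Buffy (0 of 2) were not bound either. The death ligand egr (Eiger) was bound at 6.01 ± 0.478 (SD, n = 3), and its receptors grnd and wgn were not. The DNA damage regulator p53 was bound at 2.39 ± 0.730 (SD, n = 3), and lok and mei-41 were not. Corpse clearance had drpr and NimC4 of 3 genes, and the nucleases had Drep3 of 5.

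The 5 pathway genes of highest promoter signal were eff, Cyt-c-p, Cyt-c-d, puc and bsk. At eff, an E2 ubiquitin-conjugating enzyme, the mean relative signal was 40.9 ± 8.01 (SD, n = 3). It was highest in replicate 2 and lay below each Diap1 value. The neighbouring cytochrome c genes Cyt-c-p and Cyt-c-d had 13.3 ± 2.59 and 10.1 ± 1.46 (SD, n = 3 each). The JNK pathway genes puc and bsk had 9.79 ± 0.618 and 9.65 ± 0.645 (SD, n = 3 each), which differed by less than their SD.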

How the data were processed

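Deposited peak lists from 3 replicates, their pooled alignments and an optimal IDR set were used. Calling used dm6 alignments and 1 control alignment, and the IDR set was derived from the other 4 lists, per the file headers. Aligner, caller and IDR threshold: not given in the sources used here. Sequencing depth is unknown. The deposited signal values (column 7) are the authors', not scaled between lists, and were divided here by the median of their list. Identical intervals numbered 188 between replicates 1 and 3, 1 between 2 and 3, and 0 between 1 and 2 of 30000.

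Genes came from Ensembl release 115 and sequence from RefSeq, on 1 assembly; all 8 genes had the same span in both within 5 bp. Where a replicate peak covered an IDR summit, the replicate's value was taken from the closest summit in it. The scripts were tested on simulated data. With 1 group no test between groups was possible. Members and lists were chosen with earlier results of these data known. Genes named are the 8, the genes nearest their summits, 3 genes like the strongest, and the 5 strongest pathway genes; pathway genes are also named by role. Endo-G matched no gene, and Tango7 matched eIF3m. Python 3.11.15, pandas 2.3.3 and numpy 2.4.6 were used.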

Additional observations from a re-analysis of the deposited data

How the results depend on the processing

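Of 57 values recomputed under alternatives, 47 stayed within their range and 10 moved. The range was the 95% exact interval for word shares, the SD around the mean for signals, and a set ratio to the main value for counts. Leaving out 1 replicate cannot move a mean signal beyond this SD. It can only raise the count of summits found in every remaining replicate, at most to 34. Those values were thus bound to stay and say nothing about robustness. In the 4333 strongest IDR peaks the 34 summits became 16, the genes with a summit in the body or within 10 kb became 4 (rpr, hid, grim and Diap1), the bound pathway genes became 9 and the CGATA share became 0%. This set holds fewer peaks by construction. Dividing by the median of each replicate's 8667 strongest peaks gave Diap1 37.5, rpr 1.62, hid 1.26, grim 1.26 and skl 0.777, which rescales all values. Windows of 100 bp each side gave TTCG at 82.4% of the 34 summits (all IDR summits 85.1%), TTCGG at 35.3% (43.5%), GAGAG at 23.5% (38.8%) and CGATA at 8.82% (25.8%), being wider. The 16 summits among the strongest peaks had TTCG at 68.8% (all strongest peaks 71.1%), TTCGG at 37.5% (35.3%) and GAGAG at 6.25% (24.5%), so the shares of these words rest on few summits. The 5 bound genes were the same with the most upstream TSS only, a window of 1000 bp and each replicate's strongest peaks; hid was lost with 250 bp and skl among the 4333 strongest IDR peaks. Leaving out 1 replicate gave 139 to 149 at Diap1, 6.02 to 6.44 at rpr, 4.52 to 5.13 at hid, 4.57 to 5.13 at grim, 2.77 to 3.29 at skl, and 33 to 34 summits found in every remaining replicate. No paired analysis was possible because there is 1 group.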
